A study of Cicer arietinum with 24 samples.

Results

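In the small-seeded chickpea cultivar Himchana 1, 12 of 23943 genes had a sharp transcript peak in the youngest seeds collected (S1). They were chosen from the deposited values themselves as the genes with at least 20 FPKM (a transcript level corrected for transcript length and sequencing depth) at S1 and at least 5 times the value of each of the other 7 libraries. Only genes whose identifier stood alone and was listed once were considered. The 12 genes are 0.0501% of all genes considered and 0.268% of the 4484 genes with at least 20 FPKM at S1. Both shares follow from the rule and carry no test.

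Transcripts were measured by RNA sequencing of field-grown plants, in whole seeds of 7 successive stages, S1 to S7, and in leaves taken when the seeds were at mid-maturation, with 3 biological replicates per group and 24 samples in all. The labels give no mutation, transgene or treatment for any group. The study terms S1 early-embryogenesis, S2 mid-embryogenesis, S3 late-embryogenesis, S5 mid-maturation and S7 late-maturation, while S4 and S6 are known here only by their numbers. The values deposited for each group are 1 FPKM per locus for its 3 replicates together, so that no replicate error, test or p-value could be given and every difference describes these libraries only.

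A young seed is a mixture of the embryo, the endosperm that nourishes it and the maternal seed coat. In early embryogenesis the embryo patterns its tissues and its cells divide, the endosperm proliferates, and the seed coat expands around both. In legumes the endosperm is later largely absorbed, and the cotyledons fill with storage protein and starch before the seed dries. A transcript that is abundant only in the youngest whole seeds may therefore belong to any of these tissues. In such bulk samples, fewer cells of a type and less RNA per cell cannot be told apart. None of the 12 genes is named in the text of the paper, and its process lists hold none of them, so they are given by identifier with no role.

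At S1, the 12 genes ranged from 25.8 to 2127 FPKM with a median of 75.3 FPKM, whereas the 4484 genes at 20 FPKM or more at S1 had a median of 44.0 FPKM. Ca_22198 held 66.3% of the FPKM summed over the 12 genes at S1. It ranked 20 among the 23943 genes at that stage, Ca_03534 ranked 352 and Ca_26976 ranked 432. The least abundant of the set, Ca_08044, ranked 3619. The peak was therefore found over a wide range of levels, from one of the most abundant transcripts of the young seed to genes just above the minimum of 20 FPKM.

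The difference between S1 and S2 had a median of 3.00 on the log2(FPKM + 1) scale over the 12 genes, and it ranged from 2.25 to 7.44. Over the 4484 genes the median difference between S1 and S2 was 0.20. The rule requires at least 5 times between S1 and S2, so a large difference in the 12 genes follows from it. The next highest library was S2 for 9 of the 12 genes (75%), S4 for Ca_01247, S5 for Ca_03534 and leaf for Ca_20879. Among the 928 genes at 20 FPKM or more at S1 that were highest there, S2 was next for 534 (57.5%). All 12 genes were higher at S2 than at S3, but the share of all genes with this order was not counted. In some of them S2 was only slightly above S3 or S4, as in Ca_26976 and Ca_06626.

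**Figure D1:**
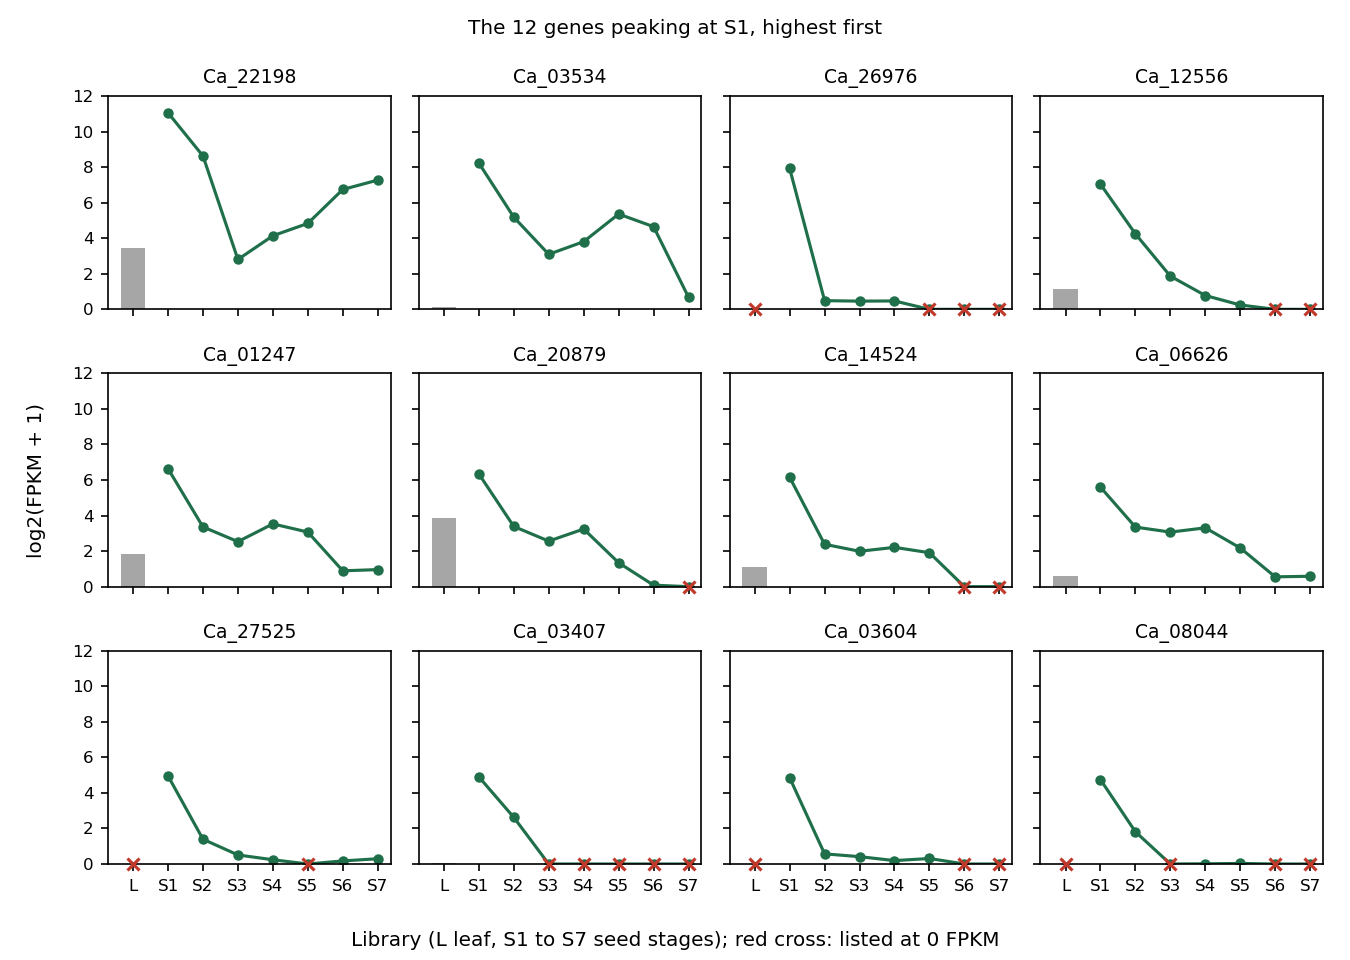
FPKM of the 12 genes in the 8 libraries, as log2(FPKM + 1) on the vertical axis, with leaf as a grey bar, the 7 seed stages as points joined by a line and values listed at 0 as red crosses. Each point is the authors' merged value of 3 replicates. Ca_22198 and Ca_03534 have a second maximum at S7 and at S5, and 6 genes are listed at 0 at S6 and S7.

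The genes were put into 3 groups by their course after S2, and these groups were made after the values had been seen. The first holds the 2 genes with more than 20 FPKM at S5 and S6, Ca_22198 and Ca_03534. From S1 to S7, Ca_22198 had 2127, 394, 5.99, 16.6, 27.5, 106 and 153 FPKM, with 9.99 FPKM in leaf. Its deposited value was 65.9 times lower at S3 than at S2, then higher at every following stage. At S7 it was 25.6 times that of S3. Even so, S7 held only 7.21% of the S1 value. It was the only gene of the 12 with at least 1 FPKM in each of the other 7 libraries, and at S7 it held 98.5% of the FPKM summed over the 12 genes. On the log2(FPKM + 1) scale, the 8943 genes that reached 1 FPKM in all 8 libraries had a median difference between S7 and S3 of 0.44 in the deposited values. It turned to -0.71 once every library was scaled to the same sum, to -0.25 with the upper quartile and to -0.02 with the median ratio. The S7 value of Ca_22198 stayed above that of S3 under these scalings, at 10.6, 15.2 and 18.1 times. The rise at every stage did not hold throughout, since with the same sum its S5 value was below that of S4.

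Ca_03534 had 299.5, 35.4, 7.54, 13.0, 40.1, 24.1 and 0.601 FPKM from S1 to S7, and 0.104 FPKM in leaf. Its second, lower maximum was at S5, where it reached 13.4% of the S1 value, and it was below 1 FPKM at S7. Ca_03534 was the only member whose highest value in S5 to S7 exceeded that in S2 to S4, by a ratio of 1.13, and this order turned after scaling to the same sum or by the upper quartile. Of the 4484 genes at 20 FPKM or more at S1, 2607 (58.1%) had their highest value of S2 to S7 in S5 to S7. This share is from the deposited values and was not counted again after scaling. The rule used S2 to S7 and caps their values in the members, so the contrast is a description. The second maximum of these 2 genes thus lay at different stages, S7 for Ca_22198 and S5 for Ca_03534.

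The second group holds 4 genes that kept a low value from S2 to S5 and were below 1 FPKM at S6 and S7. Over S1 to S7, Ca_01247 had 98.5, 9.27, 4.79, 10.6, 7.41, 0.855 and 0.944 FPKM, with 2.59 FPKM in leaf. Its value at S4 was 2.21 times that at S3. Ca_20879 had 80.2, 9.46, 4.91, 8.47, 1.54 and 0.0600 FPKM from S1 to S6, and it was listed at 0 at S7. It had 13.3 FPKM in leaf, or 16.6% of its S1 value, and was the only member with at least 10 FPKM there.

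Ca_14524 had 70.3, 4.22, 2.97, 3.63 and 2.76 FPKM from S1 to S5, was listed at 0 at S6 and S7, and had 1.12 FPKM in leaf. Between S2 and S5 its value thus stayed between 3.92% and 6.00% of that at S1. Ca_06626 had 47.4, 9.20, 7.39, 8.91, 3.52, 0.467 and 0.50 FPKM from S1 to S7, and 0.503 FPKM in leaf. It had the least sharp peak of the set, since S1 was 5.15 times S2 and S2 to S4 held 15.6% to 19.4% of the S1 value. All 4 genes were higher at S4 than at S3, with ratios of 1.21 to 2.21, and in each of them S5 was below S4.

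The third group holds 6 genes that were below 1 FPKM from S4 on. Ca_26976 had the sharpest peak of the 12, with 242, 0.402, 0.377 and 0.386 FPKM from S1 to S4, and it was listed at 0 at S5, S6 and S7 and in leaf. Its S1 value was 602 times that of S2. Ca_03604 had 27.9, 0.485, 0.332, 0.142 and 0.239 FPKM from S1 to S5, and was listed at 0 at S6 and S7 and in leaf. These 2 genes were below 1 FPKM in each of the other 7 libraries, so that nearly all of their FPKM summed over the libraries (99.5% and 95.9%) was found at S1.

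Ca_27525 had 30.0, 1.63, 0.423 and 0.180 FPKM from S1 to S4, was listed at 0 at S5 and in leaf, and had 0.128 FPKM at S6 and 0.228 at S7. Ca_12556 had 131, 17.9, 2.64, 0.715 and 0.185 FPKM from S1 to S5, was listed at 0 at S6 and S7, and had 1.18 FPKM in leaf. It was the only gene of this group with a lower value at each stage from S1 to S6, and its S2 value was the highest of the 6.

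Ca_03407 had 28.9 FPKM at S1, 5.16 at S2 and 0.0321 in leaf, and it was listed at 0 from S3 to S7. Ca_08044 had 25.8 FPKM at S1, 2.51 at S2, 0.00789 at S4 and 0.0221 at S5, and it was listed at 0 at S3, S6, S7 and in leaf. These 2 genes had more than 0.1 FPKM only at S1 and S2. A value of exactly 0 may also come from an estimate that failed, and with no fragment numbers in the files the precision of such low values is unknown.

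**Figure D2:**
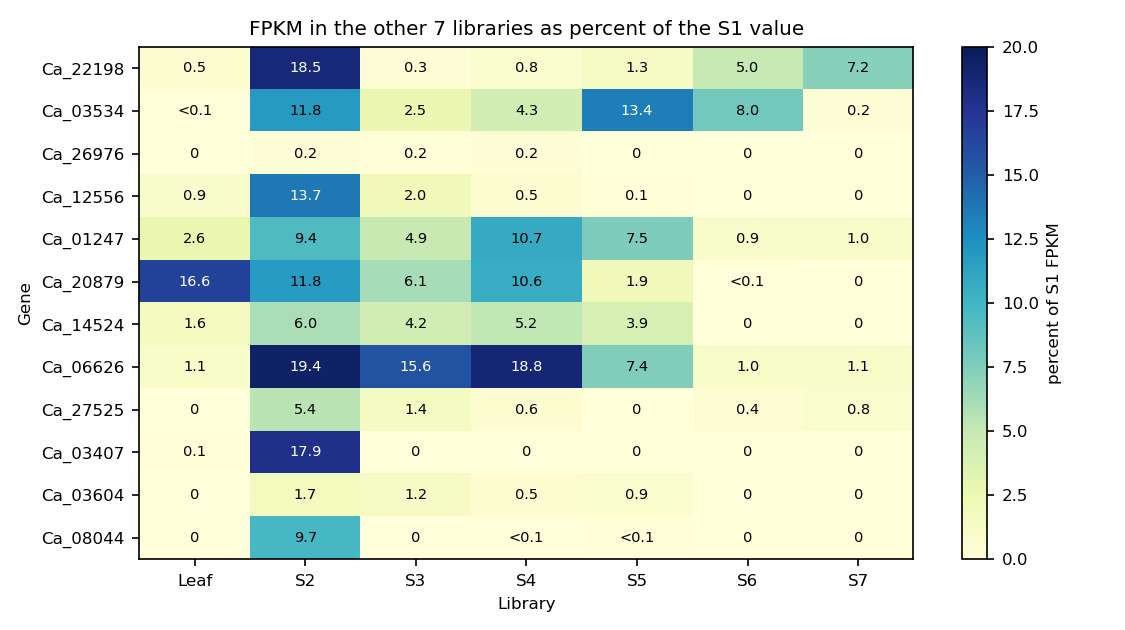
FPKM of each of the 12 genes (rows) in the other 7 libraries (columns) as percent of its S1 value, with the colour scale running from 0 to 20%. The highest cell is 19.4%, below the ceiling of 20% that the rule sets. The 4 genes Ca_01247, Ca_20879, Ca_14524 and Ca_06626 keep 4.23% or more of their S1 value from S2 to S4.

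Of the 12 genes, 8 were higher at S4 than at S3 and 4 were higher at S5 than at S4. The shares of all genes with these orders were not counted, so the 2 numbers describe the members only. The number listed at 0 was 0 at S2, 2 at S3, 1 at S4, 3 at S5, 6 at S6 and 7 at S7, and their median level went from 7.18 FPKM at S2 to 2.81 at S3, 2.17 at S4, 0.889 at S5 and 0.0300 at S6. Among all 23943 genes the share listed at 0 was 25.7% at S2 and 36.4% at S7, so zeros were also more common at S7 in general. There were 6 members at 0 at S6 and S7 alike, out of 55 such genes among the 4484 at 20 FPKM or more at S1 (1.23%). At S6 and S7, 10 members were below 1 FPKM, against 422 of the 4484 genes (9.41%). The rule used these libraries and caps their values, so the contrast is a description.

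In leaf, 7 of the 12 genes were below 1 FPKM and 4 of these were listed at 0. Among the 4484 genes, 253 (5.64%) were below 1 FPKM in leaf and 19 (0.424%) were listed at 0. The rule also used leaf and caps its value, which favours low leaf values among the members, so this contrast is a description. Leaf values above 1 FPKM were found for Ca_20879 (13.3 FPKM), Ca_22198 (9.99), Ca_01247 (2.59), Ca_12556 (1.18) and Ca_14524 (1.12). The peak in young seeds was thus not limited to genes without transcripts in leaf.

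S2 was the library that decided how many genes met the rule. Of the 4484 genes, only 19 (0.424%) had at least 5 times more FPKM at S1 than at S2, whereas 211 (4.71%) passed against S3, 243 (5.42%) against S4, 443 (9.88%) against S5, 1029 (22.9%) against S6, 1208 (26.9%) against S7 and 766 (17.1%) against leaf. There were 98 genes kept out by S2 alone. Their S1 value was between 0.756 and 4.67 times that of S2, with a median of 2.10, and only 4 of them were higher at S2. Leaf alone kept out Ca_22295, and S6 alone kept out Ca_16309.

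Sharp peaks were rare at most seed stages by the same rule. S1 was the highest of the 8 libraries for 928 of the 4484 genes (20.7%), but the median ratio to the next library was 1.30, and 140 genes reached 2 times and 49 reached 3 times. The numbers of genes with at least 20 FPKM and 5 times every other library were 1 at S2, 12 at S3, 9 at S4, 83 at S5, 7 at S6, 7 at S7 and 532 in leaf. In the same order they were 0.0226%, 0.268%, 0.204%, 1.80%, 0.137%, 0.137% and 11.1% of the genes at 20 FPKM or more in that library. At 10 times every other library, 5 of the 12 genes remained at S1, namely Ca_26976, Ca_03604, Ca_27525, Ca_14524 and Ca_08044. The numbers at S1 and S3, equal at 5 times, were 49 and 28 at 3 times, 15 and 17 at 4 times, 6 and 5 at 8 times and 5 and 3 at 10 times every other library. S1 had fewer such genes than S5 or leaf at 3, 4, 5, 8 and 10 times. The seed stages follow each other in development whereas leaf is another organ, and the part of this in the numbers was not tested.

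**Figure D3:**
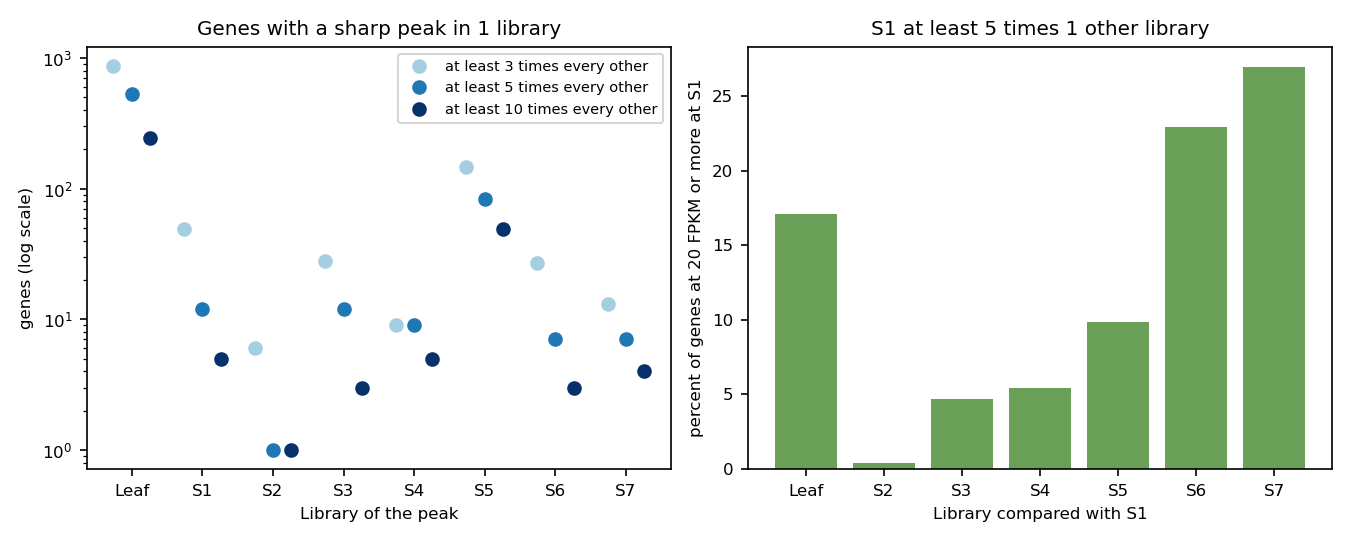
Left, the number of genes (log scale) with at least 20 FPKM in a library and at least 3, 5 or 10 times every other library, for each of the 8 libraries. Right, the percent of the 4484 genes at 20 FPKM or more at S1 whose S1 value was at least 5 times that of 1 other library, which is 0.424% for S2 and 26.9% for S7.

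Around the limits of the rule, values changed little from members to other genes. Just inside the fold limit were Ca_06626, Ca_22198, Ca_03407, Ca_20879 and Ca_12556, with S1 at 5.15, 5.40, 5.59, 6.03 and 7.29 times the next library. Just outside were Ca_25584 at 4.67 times (82.8 FPKM at S1 and 17.7 at S2), Ca_13003 at 4.64, Ca_27048 at 4.63, Ca_16309 at 3.98 and Ca_00826 at 3.67 times. The first 3 of these were next highest at S2 and below 1 FPKM from S5 on, as were the 6 genes of the third group. Ca_16309 differed, with 21.2 FPKM at S1, 0.755 at S2 and a second maximum of 5.32 at S6.

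Below the limit of 20 FPKM, Ca_24568 had 19.5 FPKM at S1 and 3.02 at S2, Ca_03361 had 14.5 and 1.68, Ca_18942 had 13.8 and 1.09, Ca_08556 had 10.2 and 0.101, and Ca_22177 had 10.1 and 0.301. The lowest members at S1 were Ca_08044, Ca_03604, Ca_03407, Ca_27525 and Ca_06626, between 25.8 and 47.4 FPKM. Ca_08556 was listed at 0 from S3 to S7 and in leaf, and its S1 value was 101 times that of S2, so its peak was sharper than that of 11 of the 12 members.

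The study sorted genes into processes, and these lists were used to see which known functions come near the S1 peak. They hold only genes with a methylation or expression difference between stages or cultivars, so they are neither complete nor independent of expression. None of the 12 genes is on any of the 6 lists, which hold 527 of the 4484 genes at 20 FPKM or more at S1 (11.8%). On the cell cycle list, 109 of the 296 genes that reached 1 FPKM in some library (36.8%) had S1 as the highest of the 8 libraries, against 13.6% of the 15247 genes counted in the same way. On this list 38 genes (12.8%) were at least 2-fold higher at S1 than at S2 on the log2(FPKM + 1) scale. Another 9 (3.04%) were at least 2-fold lower, and the median difference was 0.21. Over the 15247 genes, a 2-fold higher value at S1 was found for 3.6% and a 2-fold lower value for 6.46%, with a median of -0.01.

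The cell growth list had S1 as the highest library for 32 of 150 genes (21.3%), the differentiation list for 108 of 628 (17.2%), the grain filling list for 26 of 153 (17.0%), the list of genes in seed weight QTLs for 119 of 770 (15.5%) and the desiccation list for 12 of 134 (8.96%). The median difference between S1 and S2 was 0.00 for cell growth, 0.06 for differentiation, -0.05 for grain filling, 0.02 for QTL genes and -0.17 for desiccation. Of the desiccation genes, 7 (5.22%) were at least 2-fold higher at S1 than at S2 and 17 (12.7%) at least 2-fold lower. Both shares were above those over all genes counted, 3.6% and 6.46%. The shares higher and lower were 5.33% and 6% for cell growth and 5.1% and 4.14% for differentiation. For grain filling they were 1.96% and 7.84%, and for QTL genes 3.12% and 5.58%. The cell cycle list thus had the largest share of genes highest at S1 and the desiccation list the smallest, without a test of these differences.

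**Figure D4:**
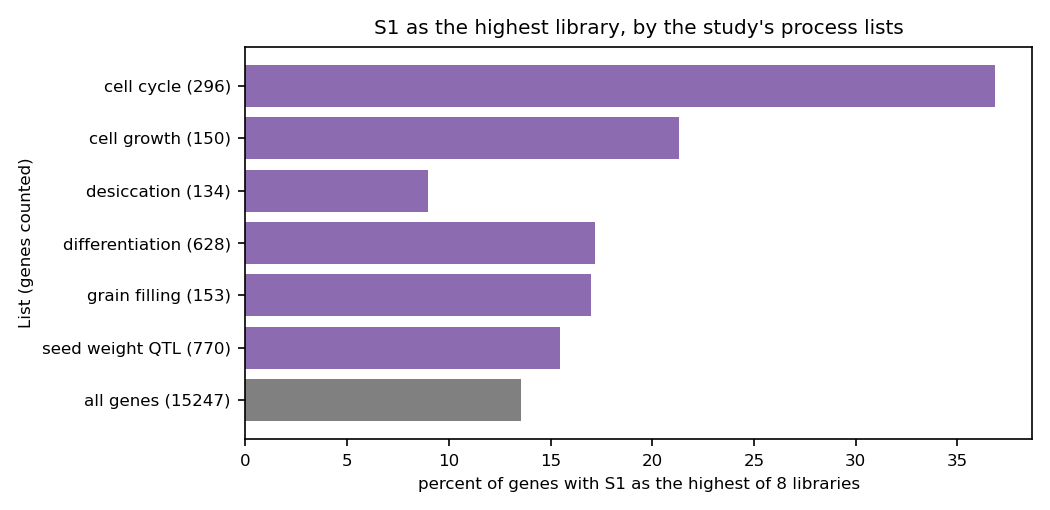
Percent of genes with S1 as the highest of the 8 libraries on each of the 6 process lists and among all genes, with the number of genes counted in brackets. The cell cycle list is at 36.8%, all genes at 13.6% and the desiccation list at 8.96%.

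Since no member is on a list, every listed gene at 20 FPKM or more at S1 lies below 5 times the next library by the rule. Among listed genes at 20 FPKM or more at S1, the sharpest on the cell cycle list was Ca_15408. The paper lists this gene under minichromosomes, among genes of cell cycle regulation. It had 33.3, 9.12, 5.02, 6.82, 3.02, 0.981 and 1.61 FPKM from S1 to S7 and 0.585 in leaf. It was 3.65 times higher at S1 than at S2. With the same minimum, the sharpest on the differentiation list was Ca_23587 (CaCMT3), a chromomethylase that maintains methylation in CHG context. This gene is also on the cell cycle list. It had 31.7, 9.29, 3.92, 4.72 and 0.715 FPKM from S1 to S5, 0.0499 at S7 and 0.114 in leaf, and was listed at 0 at S6. It was 3.41 times higher at S1 than at S2. Ca_27048, on the grain filling list and just outside the fold limit, had 23.7 FPKM at S1 and 5.11 at S2.

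On the cell growth list Ca_13226, which is also on the differentiation list, had 28.0 FPKM at S1 and 8.94 at S2. On the QTL list Ca_05351 had 144 and 46.3. On the desiccation list Ca_05754 had 184 and 83.8 FPKM. In each of these genes, as in 9 of the 12, S2 was the next highest library. Ca_18942, which is on the cell cycle list, was at 9.11 times the next library (S4) but below the minimum with 13.8 FPKM at S1. After rescaling to the same sum it met the rule, with 21.2 at S1 and 8.65 times the next library.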

How the data were processed

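Whole seeds at 7 stages and leaves were sequenced with 3 replicates each. Reads that passed NGS QC Toolkit were aligned by the authors with TopHat to an annotated chickpea genome, and Cufflinks gave the FPKM. Deposited FPKM hold 1 merged value per group, and how the replicates were merged and the libraries scaled is not given in the sources used here. The summed FPKM went from 723136 at S2 to 2515731 at S7, while the 75th percentile of all 35234 loci lay between 10.7 and 11.7. The depth is unknown, since ratios of values below 0.08 FPKM between S1 and the other libraries showed no common step (at most 2.83% fell in any window of 2%).

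Loci with several identifiers (1661), a repeated identifier (2362) or no gene identifier (7268) were left out. None of the 23943 identifiers matched a RefSeq table of another assembly (Cicar.CDCFrontier_v2.0) with 29938 genes, so no names, coordinates or sequences were taken from it.

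Members follow from the FPKM themselves, and the members and lists were chosen with earlier results of these data known. Differences between stages were taken as log2(FPKM + 1). Process lists came from Supplementary Datasets 4 and 11, and listed genes were counted at 1 FPKM or more in some library. Genes named are the 12 members and the 5 genes just outside each limit. Genes kept out by 1 library alone were chosen after their values were seen. So was the sharpest listed gene of each process among those at 20 FPKM or more at S1. Other fold limits, minimums, pseudocounts, scalings and sets of loci were tried. The rule was run on simulated data for 23943 genes, where 100 of 100 planted 10-fold peaks and 0 of 100 planted 2-fold peaks were called. The peaks were planted in flat profiles with little noise, where the limits of the rule fix this outcome. The run therefore checks the calculation only, not how the rule behaves with the variation of real libraries. Python 3.11.15, numpy 2.4.6, pandas 2.3.3, scipy 1.17.1 and matplotlib 3.10.9 were used.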

Additional observations from a re-analysis of the deposited data

Results flagged for a closer look

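Loci that carry no gene identifier, which entered none of the comparisons above, also held S1 peaks. By the same rule 17 of them qualified, out of 258 such loci with at least 20 FPKM at S1 (6.59%), against 12 of 4484 genes. Their S1 values ranged from 24.8 to 1434 FPKM with a median of 41.8 FPKM, and their median at S2 was 3.28 FPKM. In leaf 13 of the 17 were listed at 0 and the highest had 0.162 FPKM. All 17 were listed at 0 at S5, S6 and S7, as were 37 of the 258 loci. The rule used these libraries and leaf and caps their values, so these low values are a description. The share of the 258 loci at 0 in leaf was not counted. The highest, XLOC_004376, had 1434 FPKM at S1, 125 at S2 and 0.234 at S3 and was listed at 0 in the other libraries, and XLOC_034657 had 46.1 FPKM at S1 and 0.0428 at S2. XLOC_029808, XLOC_029809 and XLOC_029810, which have consecutive numbers, had 26.6, 41.8 and 46.6 FPKM at S1. Such loci were also found with the peak elsewhere, 3 at S2, 46 at S3, 16 at S4, 39 at S5, 4 at S6, 5 at S7 and 60 in leaf. The number of such loci at 20 FPKM or more was counted at S1 only, so these numbers have no shares. What these loci encode was not analysed here.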

How the results depend on the processing

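No paired analysis was possible because each group has a single merged column, and fits without each replicate were not run for the same reason. The number of S1-peaking genes, 12 by the rule, was 49 at 3 times, 6 at 8 times and 5 at 10 times every other library. It was 7 with a minimum of 50 FPKM and 4 with 100 FPKM, and 110 when S2 was left out of the rule, while leaving out any other library gave 12 or 13. Scaling to the same sum gave 13 genes, of which 9 were among the 12, with Ca_22198, Ca_03407 and Ca_06626 lost at 4.70, 4.87 and 4.49 times the next library and Ca_03361, Ca_16309, Ca_18942 and Ca_24568 gained, of which Ca_18942 is on the cell cycle list. Scaling by the upper quartile or the median ratio also gave 13 genes, with 11 of the 12, Ca_06626 lost and Ca_16309 and Ca_24568 gained. A pseudocount of 1 FPKM left 10 genes, without Ca_03407 and Ca_06626. The 1 gene higher in S5 to S7 than in S2 to S4 became 0 after scaling to the same sum or by the upper quartile. S2 was the next highest library for 9 of the 12 genes as deposited. With the same sum, the upper quartile and the median ratio it was next for 11, 10 and 9 of them. The S7 to S3 ratio of Ca_22198, 25.6 as deposited, was 10.6, 15.2 and 18.1 with the same sum, the upper quartile and the median ratio (chosen after seeing the data). The median S1 to S2 drop stayed between 2.88 and 3.22 under the 5 pseudocounts and scalings tried, and the same-sum scaling moved the median S1 to S2 difference of the 8943 genes at 1 FPKM or more in every library from 0.05 to -0.14. Without replicates or depth, values near 0 and ratios to them have unknown precision.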
